A study of Homo sapiens with 6 samples.

Results

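The homeobox cofactor genes MEIS1, MEIS2, MEIS3, PKNOX1, PKNOX2, PBX2 and PBX3 were taken by symbol from the deposited FPKM table and make up 7 of its 27420 genes. FPKM is the number of sequenced fragments scaled to the length of the transcripts and to the size of the library, so that it can be compared between genes. All 7 genes belong to the TALE class of homeobox genes, whose homeodomain carries an extra loop of amino acids. MEIS and PKNOX (also called PREP) proteins bind PBX proteins through a shared N-terminal domain, and the partners bind DNA together and with HOX proteins, which bind less specifically alone. In leukaemia MEIS1 and PBX3 are known as partners of HOX proteins, and in the embryo the family patterns limbs, heart and nervous system.

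RNA was sequenced from A673 and SKNMC, established lines of Ewing sarcoma, a tumour of bone and soft tissue driven by the EWS-FLI1 fusion protein. Each line was grown in serum-containing DMEM and received, for 6 h, THZ1 at 50 nM, THZ1 at 200 nM or the vehicle DMSO alone. THZ1 is a covalent inhibitor of CDK7, the kinase that phosphorylates RNA polymerase II early in transcription. Each of the 6 conditions has 1 library, so a change within 1 line has no replicate error. A gene was taken as active in a line when its FPKM was above 1 in DMSO, changes are log2 ratios of FPKM with 1 added, and a change of at least 2-fold was counted.

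All 9 Ewing sarcoma markers examined, CD99 and NKX2-2 among them, were above 1 FPKM in all 6 libraries. Of 8 markers of leukocytes, epithelium and endothelium, 7 are in the table, with CD3E and KRT5 listed at 0 throughout. Their summed level was 0.0769 to 0.142 FPKM in A673 and 8.43 to 14.1 FPKM in SKNMC, where PTPRC, the leukocyte antigen CD45, made up 7.90 to 13.1 FPKM. The part of PTPRC expression in the differences between lines was not tested. Summed FPKM lay between 97.8% and 100.5% of the DMSO library of the line. Ribosomal protein genes took 13.6%, 16.1% and 17.7% of it in A673 and 19.0%, 24.7% and 29.7% in SKNMC at DMSO, 50 nM and 200 nM, and since FPKM is a share of each library, less RNA per cell and fewer cells cannot be told apart. The part of this share in the changes below was not tested.

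How close the members are in sequence bears on whether short reads can separate them. A stretch of 39 bases of each coding sequence, around the DNA-recognition helix of the homeobox and read from GENCODE release 44 transcripts on GRCh37, is shown because this helix contacts DNA. Capitals mark bases that differ from MEIS1.
MEIS1: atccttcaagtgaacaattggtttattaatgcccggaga
MEIS2: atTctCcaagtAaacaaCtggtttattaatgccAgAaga
MEIS3: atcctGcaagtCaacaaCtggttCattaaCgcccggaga
PKNOX1: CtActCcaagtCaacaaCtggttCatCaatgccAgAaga
PKNOX2: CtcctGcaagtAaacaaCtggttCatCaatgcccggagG
PBX2: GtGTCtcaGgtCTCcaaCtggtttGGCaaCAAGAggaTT
PBX3: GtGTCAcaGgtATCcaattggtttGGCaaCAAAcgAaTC

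The MEIS2 and MEIS3 stretches differed from MEIS1 at 6 and 5 of these 39 bases, PKNOX1 and PKNOX2 at 9 and 7, and PBX2 and PBX3 at 19 each. Over the aligned bases of their coding sequences, gaps left out, MEIS1 and MEIS2 were 78.4% identical (917 of 1170) and PBX2 and PBX3 74.2% (930 of 1253). The longest run of identical bases between the coding sequences of any pair of members was 23, shared by MEIS3 and PKNOX2. Other genes share more. Of the windows of 100 bases in the canonical PBX2 transcript, 23.9% occur unchanged in another gene, 8.82% in the processed pseudogene PBX2P1 and 15.05% in an overlapping noncoding transcript. The share was 5.12% for MEIS2 and 1.12% for MEIS1, in both cases with an antisense transcript, and 0% for the other 4 members. How reads in these windows were divided is not given in the sources used here, so the PBX2 level is less certain than the others.

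The 250 bases before the RefSeq start sites (GRCh38.p14) are shown for MEIS1, at chr2:66434875-66435124 on the plus strand, and for PBX2, at chr6:32190203-32190452 on the minus strand, the members with the highest levels. Capitals mark the CCAAT box (CCAAT) of MEIS1 and the GC box (GGGCGG, here on the opposite strand) of PBX2.
MEIS1: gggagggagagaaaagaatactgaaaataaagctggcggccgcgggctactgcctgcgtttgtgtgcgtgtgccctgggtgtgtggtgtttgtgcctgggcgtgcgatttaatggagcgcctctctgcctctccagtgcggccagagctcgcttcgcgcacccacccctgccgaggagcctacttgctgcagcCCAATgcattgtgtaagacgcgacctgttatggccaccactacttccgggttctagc
PBX2: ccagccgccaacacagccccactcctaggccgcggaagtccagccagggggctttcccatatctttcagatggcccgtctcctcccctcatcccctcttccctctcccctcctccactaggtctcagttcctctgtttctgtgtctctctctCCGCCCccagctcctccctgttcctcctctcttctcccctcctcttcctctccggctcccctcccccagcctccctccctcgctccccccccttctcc

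Start sites of 6 members matched, in 8 windows of 300 bases, and 8 motifs were searched on both strands. TGACAG, the core bound by MEIS and PKNOX proteins, was found before PBX3 alone, against 15.8% of all 35116 promoters. TGATTNAT, bound by PBX with HOX proteins, was found before the second MEIS2 start alone, against 2.82% of promoters, at a place that overlaps a CCAAT box. CCAAT was found before MEIS1 and before the second starts of MEIS2 and MEIS3, against 34.6%. The GC box was found before PBX2, PBX3, MEIS2, MEIS3 and PKNOX1, with 6 matches before PKNOX1, against 45.0% of promoters. The ETS repeat GGAAGGAA was found before MEIS3 alone, against 3.67%. The joint PBX and MEIS motif, TATAAA and TGACGTCA were found before no member, against 0.157%, 11.5% and 1.85% of promoters. A match is a run of letters and not a measured binding site.

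MEIS1 was the member that fell most in both lines. MEIS1 (chr2:66660584-66801001, plus strand, hg19, 13 exons) stood at 9.72 FPKM in A673 with DMSO, 2.29 FPKM at 50 nM and 1.82 FPKM at 200 nM. In SKNMC it stood at 54.7, 21.2 and 18.7 FPKM. The levels of the lines did not overlap, and in each line both THZ1 libraries lay far below DMSO and close to each other. In A673 the log2 fold change was -1.71 at the low dose and -1.93 at the high dose, while SKNMC had -1.33 and -1.500. Among the active genes of the line, ordered from the most lowered to the most raised, these changes lay at percentile 3.30, 5.42, 7.72 and 11.4. MEIS1 FPKM at 200 nM was 18.7% of DMSO in A673 and 34.2% in SKNMC.

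MEIS2, a close relative used in limb, heart and neural crest development, was low in both lines. MEIS2 (chr15:37181406-37393504, minus strand, 12 exons) stood at 1.94, 0.971 and 0.484 FPKM in A673, in order of dose, and at 3.80, 2.41 and 1.82 FPKM in SKNMC. It was lower with each dose step in both lines, with log2 fold changes from DMSO of -0.58 and -0.99 in A673 and -0.49 and -0.77 in SKNMC. None of these reached 2-fold on the scale with 1 added, which understates the change of low genes.

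MEIS3 (chr19:47906381-47922780, minus strand, 13 exons) stood at 1.00, 0.811 and 1.47 FPKM in A673 and at 0.0440, 0.0255 and 0.0838 FPKM in SKNMC. It was active in A673 alone, at the very edge of the threshold, and was the only active member above DMSO in any THZ1 library, by 0.31 on the log2 scale in A673 treated with 200 nM. PKNOX2 (chr11:125034583-125303285, plus strand, 13 exons) stood at 0.284, 0.00749 and 0.0602 FPKM in A673 and at 0.120, 0.0159 and 0.122 FPKM in SKNMC, and was active in neither line.

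PKNOX1, or PREP1, is a broadly expressed PBX partner. PKNOX1 (chr21:44394620-44453691, plus strand, 11 exons) stood at 9.40, 3.52 and 3.96 FPKM in A673 and at 7.75, 5.95 and 4.13 FPKM in SKNMC. In A673 both THZ1 libraries were low, whereas in SKNMC the 50 nM library lay between DMSO and 200 nM. The log2 fold change was -1.20 and -1.07 in A673 and -0.33 and -0.77 in SKNMC, at percentile 10.7, 23.2, 49.1 and 37.9 of the active genes.

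PBX2, a PBX protein found in most tissues, had the highest FPKM of the members in all 3 A673 libraries. PBX2 (chr6:32152512-32157963, minus strand, 9 exons) stood at 24.9, 7.48 and 12.1 FPKM in A673 and at 42.5, 20.0 and 23.4 FPKM in SKNMC. In both lines the lowest library was the one at 50 nM. The log2 fold change was -1.61 and -0.99 in A673 and -1.05 and -0.83 in SKNMC, and its percentile among active genes went from 4.28 to 25.8 between the doses in A673 and from 14.3 to 34.7 in SKNMC.

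PBX3 (chr9:128509624-128729656, plus strand, 9 exons) stood at 2.27, 1.16 and 0.672 FPKM in A673 and at 2.44, 1.29 and 1.51 FPKM in SKNMC. The lines started at like levels and both THZ1 libraries lay below DMSO in each. The log2 fold change was -0.60 and -0.97 in A673 and -0.59 and -0.45 in SKNMC.

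**Figure D1:**
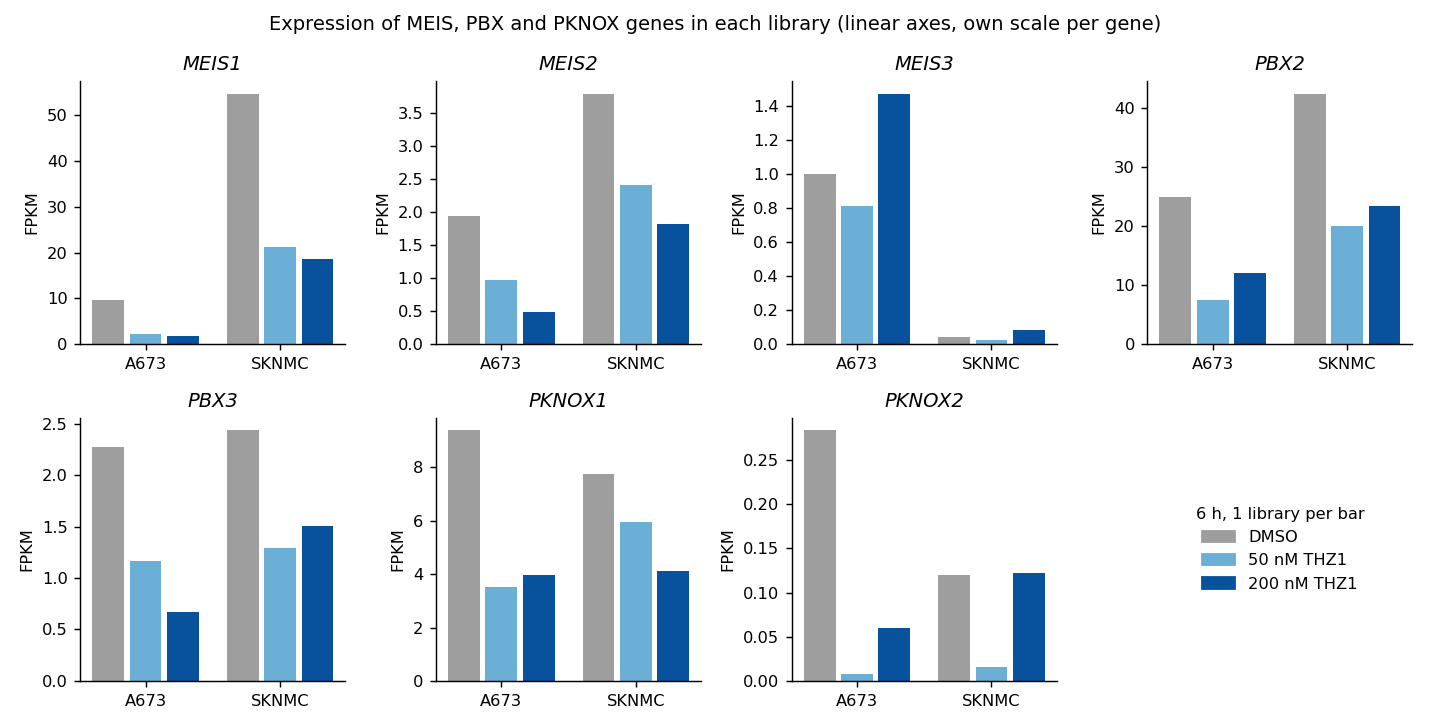
FPKM of each member (vertical axis, linear, with its own scale for each gene) in the 6 libraries, 1 bar for each library, grouped by line and coloured by treatment. DMSO is the tallest bar in both lines for MEIS1, MEIS2, PBX2, PBX3 and PKNOX1, and the 50 nM bar is the lowest of the 3 for PBX2 in both lines.

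Ordered by level with DMSO, the A673 members were PBX2, MEIS1, PKNOX1, PBX3, MEIS2, MEIS3, PKNOX2, and the SKNMC members were MEIS1, PBX2, PKNOX1, MEIS2, PBX3, PKNOX2, MEIS3. With 1 library a condition no spread separates neighbours in these orders, and MEIS1 and PKNOX1 in A673 differed by a ratio of 1.03. MEIS1 was at percentile 75.4 of all listed genes in A673 with DMSO and 94.3 in SKNMC.

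At 50 nM in A673, 3 of 6 active members were at least 2-fold lower, MEIS1, PBX2 and PKNOX1, where 15.9% of all active genes were. With 200 nM 2 of 6 were, MEIS1 and PKNOX1, where the share was 25.3%. In SKNMC 2 of 5 active members were at least 2-fold lower at 50 nM, MEIS1 and PBX2, against 15.8%, and 1 of 5 was at 200 nM, MEIS1, against 27.3%. No member was 2-fold higher, where 0.343%, 0.126%, 0.471% and 0.462% of active genes were. The median log2 fold change of the active members was -0.90, -0.99, -0.59 and -0.77 in these comparisons, beside -0.27, -0.40, -0.32 and -0.55 for all active genes. Both doses share the DMSO library of the line, which also decides which genes are active, so genes near 1 FPKM lean towards a fall. At 200 nM in A673 the count rests on the threshold: PBX2, MEIS2 and PBX3 lay at -0.99, -0.99 and -0.97, and 5 of 6 passed with a pseudocount of 0.1.

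**Figure D2:**
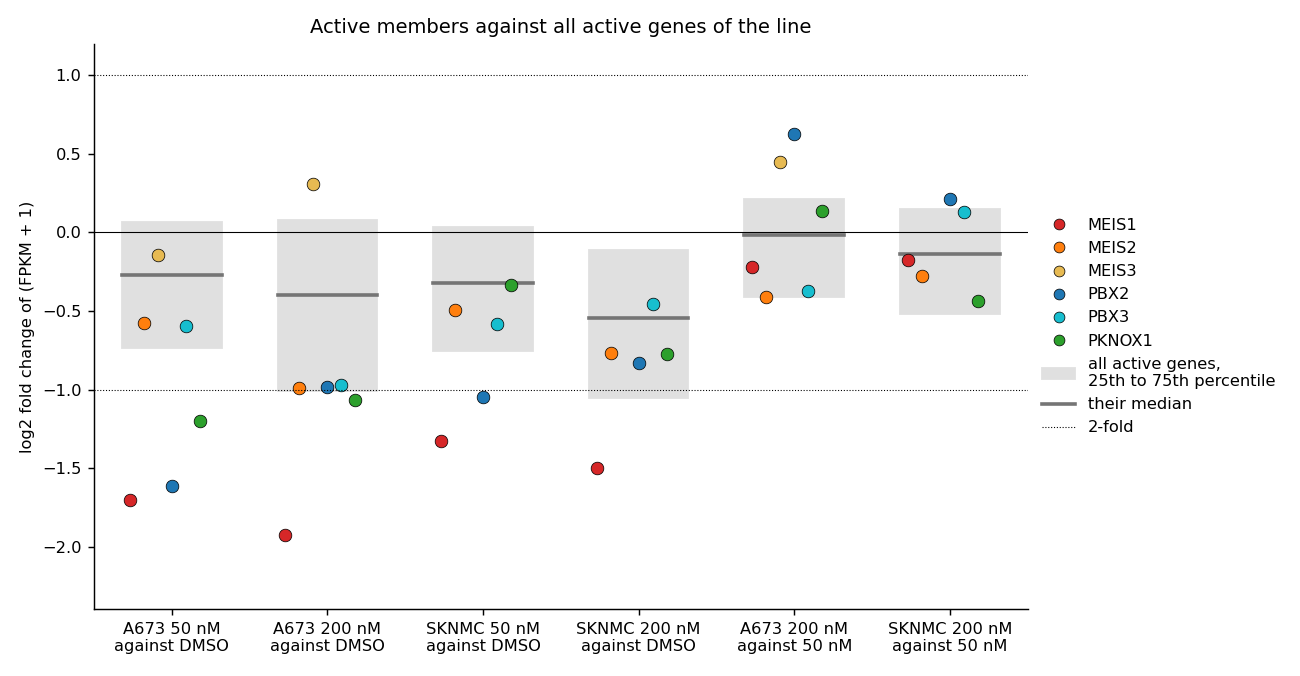
Log2 fold change of FPKM with 1 added (vertical axis) for the active members (points) in 6 comparisons, over the range from the 25th to the 75th percentile of all active genes of the line (grey box) and their median (grey line), with dotted lines at 2-fold. MEIS1 lies below the box in all 4 comparisons with DMSO, and in the comparisons of 200 nM with 50 nM PBX2 lies above it in both lines.

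The lines were then used together. limma was fitted to log2(FPKM + 1) of all 6 libraries with terms for line and treatment, over the 10574 genes above 1 FPKM in both DMSO libraries, of which 5 are members. Its error is the disagreement between the lines, with 2 residual degrees of freedom, pooled with that of all genes (9.48 prior degrees of freedom). So it tests the mean change over the lines, and whether the lines respond differently could not be tested. Without A673 DMSO, A673 50 nM, SKNMC DMSO or SKNMC 50 nM the prior was infinite. Calls in those fits do not use a gene's own disagreement between the lines. All 5 members were lower at 50 nM and at 200 nM (adjusted p under 0.05), where 38.5% and 52.7% of the genes fitted were lower and 5.12% and 6.08% higher, with medians over these genes of -0.30 and -0.48. Scaled by the 75th percentile of active genes, 25.8% and 33.3% were lower and 17.1% and 23.5% higher, and scaled by ribosomal protein genes 56.1% and 77% were lower and 1% and 0.34% higher. The filter reads only the DMSO libraries, the reference of these contrasts, so near 1 FPKM it leans towards genes that fell. In A673 at 200 nM MEIS2 and PBX3 stood below it, at 0.484 and 0.672 FPKM. With no filter MEIS1 and PBX2 were called lower at both doses and MEIS2 at 200 nM. Of all genes 8.62% and 19.4% were lower there. MEIS1 fell by 1.52 on the log2 scale at 50 nM (95% confidence interval -1.90 to -1.13, adjusted p = 5.88e-05) and by 1.71 at 200 nM (-2.10 to -1.33, adjusted p = 1.06e-05). PBX2 fell by 1.33 (-1.71 to -0.95, adjusted p = 0.000116) and by 0.91 (-1.29 to -0.53, adjusted p = 0.000803). The intervals of MEIS1 at both doses and of PBX2 at 50 nM lie wholly below the medians over all genes, also under each alternative that fitted them. For PBX2 at 200 nM this was lost with a pseudocount of 0.1 and without any library other than SKNMC DMSO, and without A673 DMSO the upper limit was -0.28 beside a median of -0.54.

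PKNOX1 had estimates of -0.77 at 50 nM and -0.92 at 200 nM (adjusted p = 0.0133 and 0.00313), PBX3 of -0.59 and -0.71 (0.0232 and 0.00613) and MEIS2 of -0.54 and -0.88 (0.0235 and 0.000879). These calls were less firm. At 50 nM all 3 were lost when libraries were scaled by the 75th percentile, with no filter on low values, without the A673 DMSO library and without the A673 50 nM library, and those of PBX3 and MEIS2 also without the SKNMC 50 nM library. At 200 nM PKNOX1 and PBX3 were lost by the 75th percentile (adjusted p = 0.0672 and 0.0971) and with no filter (0.0890 and 0.0906), and PBX3 without the A673 200 nM library (0.0868), while MEIS2 was called throughout. Over the alternatives their adjusted p at 50 nM reached 0.375 for PKNOX1, 0.275 for PBX3 and 0.210 for MEIS2, while the highest for MEIS1 and PBX2 at either dose was 0.0372. MEIS3 and PKNOX2 were below the filter, and without it neither was called at either dose, with adjusted p between 0.150 and 0.683.

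Between the lines, MEIS1 was higher in SKNMC by 2.65 on the log2 scale over the 3 treatments (95% confidence interval 2.33 to 2.96, adjusted p = 6.84e-08). Here the 3 treatments of a line take the place of repeats. The p-value measures how steady the difference is over treatments, not the spread between cultures of a line. PBX2 was higher by 0.99 (adjusted p = 0.000108) and MEIS2 by 0.81 (adjusted p = 0.000391). The differences of PBX3, 0.25, and PKNOX1, 0.14, did not pass (adjusted p = 0.182 and 0.507), their intervals running from -0.09 to 0.58 and from -0.24 to 0.53, and both turned negative when scaled by ribosomal protein genes. So 3 of the 5 members fitted were called higher in SKNMC and 0 lower, where 31.2% and 29.5% of genes were, or 38.9% and 23.7% by the 75th percentile and 11.2% and 55.5% by ribosomal protein genes. MEIS3 went the other way. It was below the filter, and without it the difference was -0.98 (adjusted p = 0.00707), where 14.9% of genes were lower and 20.1% higher. In the DMSO libraries alone MEIS1 was higher by 2.38, the only member past 2-fold of 6 active in either line, where 15% of genes were at least 2-fold higher in SKNMC and 8.42% lower. PKNOX1 stood at -0.25 there, opposite in sign to its limma estimate, while MEIS2, PBX2 and PBX3 were above 0 in both.

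**Figure D3:**
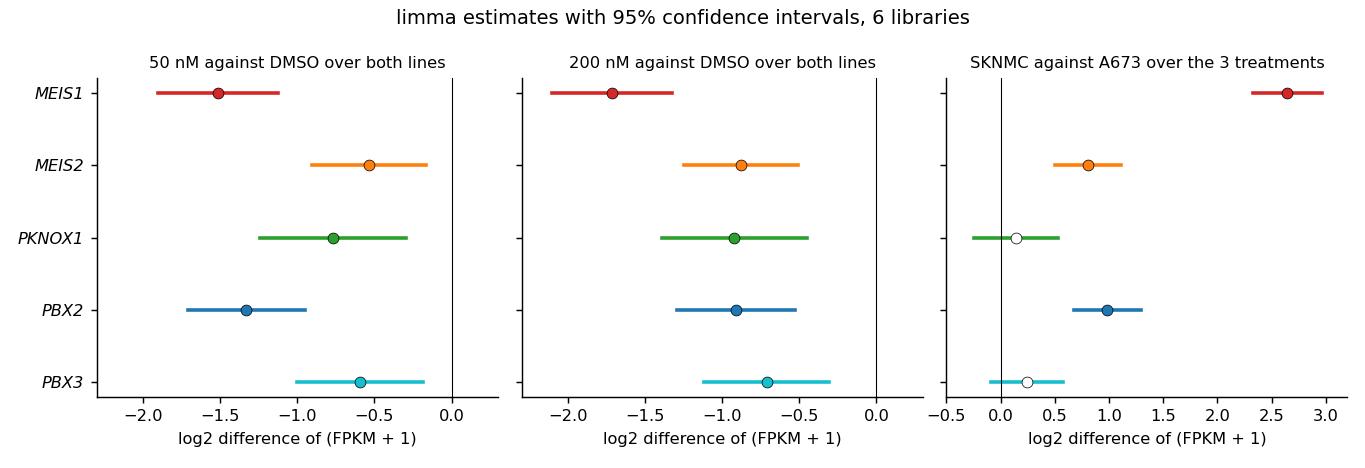
Log2 differences of FPKM with 1 added (horizontal axis) for the 5 members above 1 FPKM in both DMSO libraries, as points with 95% confidence intervals from limma over 6 libraries, with open points where the adjusted p is 0.05 or more. All 10 treatment intervals lie below 0, and in the right panel MEIS1 stands at 2.65, apart from the other members.

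From 50 nM to 200 nM no active member changed 2-fold in either line, where 7.44% of active genes were lower and 0.117% higher in A673, and 8.39% and 0.37% in SKNMC. PBX2 was higher at 200 nM than at 50 nM by 0.63 in A673, at percentile 98.3 of active genes, and by 0.21 in SKNMC, at percentile 80.2. Over both lines the limma estimate for this step was 0.42 (95% confidence interval 0.04 to 0.80), with an unadjusted p of 0.0330 and an adjusted p of 0.0969, which does not pass. It passed when scaled by the 75th percentile and without the A673 DMSO library, and the sign in SKNMC turned to -0.03 when scaled by ribosomal protein genes. The other 4 members fitted had estimates between -0.34 and -0.12, with adjusted p from 0.161 to 0.670, so 0 of 5 were called by limma and 1 had an unadjusted p under 0.05. By the same test and adjusted p, 23.2% of genes were lower at 200 nM than at 50 nM and 3.37% higher, or 17.2% and 15% by the 75th percentile. At an unadjusted p under 0.05, 29.6% of genes were lower and 8.82% higher.

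The members' shares of their summed FPKM show which member supplies most of the RNA of its group, and do not depend on how a library is scaled. In A673 MEIS1 was 43.5% of the summed FPKM of the 5 MEIS and PKNOX genes with DMSO, 30.1% at 50 nM and 23.3% at 200 nM, and PKNOX1 was 42.1%, 46.3% and 50.8%. PKNOX1 thus held the largest share at both doses. MEIS3 went from 4.48% to 10.7% and 18.9%. In SKNMC MEIS1 kept the largest share, at 82.4%, 71.6% and 75.2%, with PKNOX1 at 11.7%, 20.1% and 16.6%. The sum itself fell in A673 from 22.3 to 7.59 and 7.79 FPKM, and in SKNMC from 66.4 to 29.6 and 24.8 FPKM, without a replicate error.

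Of the summed FPKM of PBX2 and PBX3, PBX2 held 91.6%, 86.5% and 94.7% in A673 and 94.6%, 93.9% and 93.9% in SKNMC. The sum stood at 27.2, 8.64 and 12.8 FPKM in A673 and at 44.9, 21.3 and 24.9 FPKM in SKNMC, so that the low dose gave the lowest sum in both lines.

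**Figure D4:**
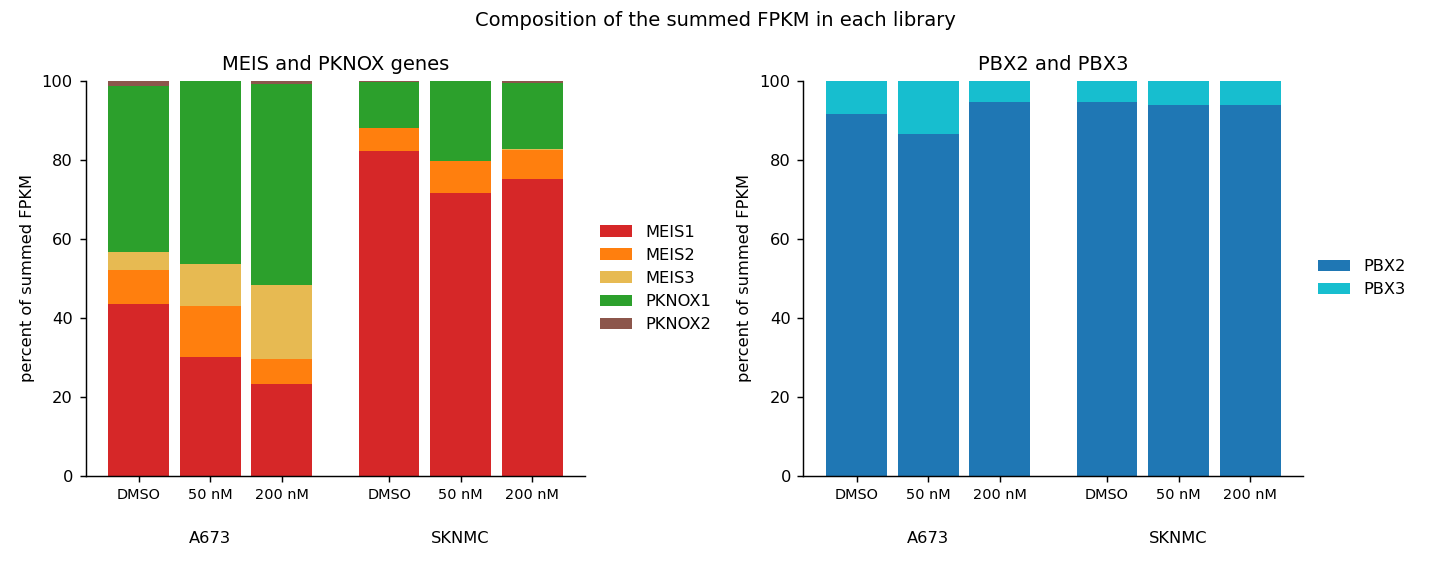
Share of the summed FPKM (vertical axis, percent) held by each MEIS and PKNOX gene (left) and by PBX2 and PBX3 (right) in the 6 libraries, 1 stacked bar for each. MEIS1 shrinks from 43.5% to 23.3% in A673 and stays at 71.6% or more in SKNMC, and PBX2 holds 86.5% or more of the pair in every library.

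Of 12 other TALE homeobox genes examined, 7 were above 1 FPKM in DMSO of at least 1 line. limma could fit 4 of them, and it called all 4 lower at 50 nM and at 200 nM, where 38.5% and 52.7% of all genes fitted were. TGIF2, a repressor in TGF-beta signalling, changed by -2.34 and -2.97 on the log2 scale at the low and high dose, and its relative TGIF1 by -0.46 and -2.17. The Iroquois genes IRX3 and IRX5 had estimates of -0.94 and -0.54 at 50 nM and of -1.64 and -1.24 at 200 nM. When scaled by the 75th percentile, TGIF2 alone of the 4 was called at 50 nM, where 25.8% of all genes fitted were lower. IRX2, MKX and PBX4 were above 1 FPKM in SKNMC alone, at 2.05, 2.18 and 1.01 FPKM with DMSO. PBXIP1, a PBX-interacting protein, had estimates of -0.13 and -0.15 and was not called. Scaled by ribosomal protein genes, it was called lower at 200 nM, where 77% of all genes fitted were.

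**Figure D5:**
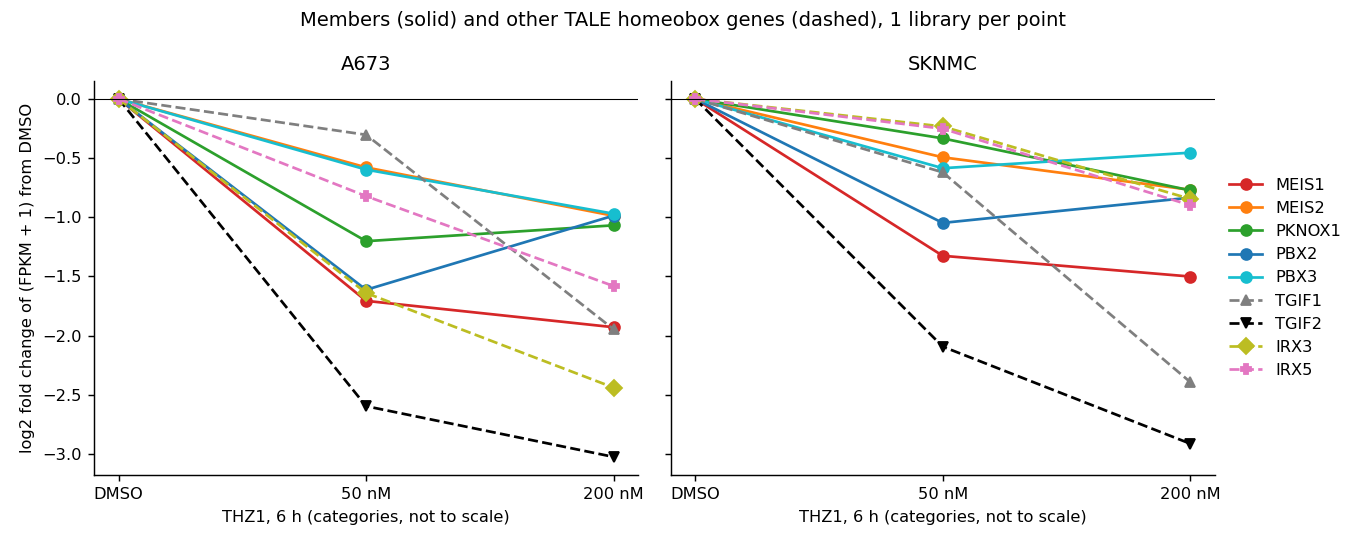
Log2 fold change of FPKM with 1 added from DMSO (vertical axis) at 50 nM and 200 nM THZ1 (horizontal axis, categories) in A673 and SKNMC, for 5 members (solid lines) and 4 other TALE homeobox genes (dashed lines), 1 library for each point. TGIF2 lies lowest in both lines, MEIS1 is the lowest member, and PBX2 turns upward between the doses in both lines.

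HOX proteins are the other partners of the family. Of 39 HOX genes, 21 were active in A673 and 23 in SKNMC, and 20 entered limma, which called 12 lower and 2 higher at 50 nM, HOXB6 and HOXC10, and 12 lower at 200 nM. Over all genes fitted 38.5% were lower and 5.12% higher at 50 nM, and 52.7% were lower at 200 nM, a share near that of the HOX genes. Under the other scalings 7 to 15 were called lower at 50 nM and 9 to 18 at 200 nM. The shares of all genes fitted ran from 25.8% to 56.1% and from 33.3% to 77% under these scalings. The 3 highest in A673 with DMSO were HOXD13, at 43.2 FPKM in A673 and 92.8 FPKM in SKNMC, HOXD11, at 41.5 and 29.9 FPKM, and HOXD8, at 38.3 and 8.68 FPKM. HOXD13 changed by -0.90 and -2.20 on the log2 scale over both lines at the low and high dose.

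Of 11 genes known or proposed as targets of MEIS1 or its complexes, 9 entered limma. It called 3 lower and 1 higher at 50 nM and 7 lower at 200 nM, where 38.5%, 5.12% and 52.7% of all genes fitted were. So the count of lower genes at 50 nM was no more than the background in this main setting. Scaled by the 75th percentile, 3 of the 9 were lower at 50 nM, where 25.8% of all genes were. Scaled by ribosomal protein genes, 6 of the 9 were, where 56.1% of all genes were. APCDD1, an inhibitor of Wnt signalling, changed by -1.64 and -1.69, close to the estimates of MEIS1. It was at 173, 65.4 and 56.2 FPKM in A673 and at 187, 50.0 and 54.0 FPKM in SKNMC, and its difference between the lines, -0.11, did not pass, while MEIS1 differed by 2.65. STEAP1 and the transcription factor gene MYB were the other genes called lower at 50 nM, and CDK6, CDKN1A, PAX6 and TRIB2 joined them at 200 nM. HIF1A, the oxygen-regulated factor, was the one called higher at 50 nM, at 0.40. CCND3 was called at neither dose, except when scaled by ribosomal protein genes, where it was called lower at both. Scaled by ribosomal protein genes, HIF1A was no longer called at 50 nM and was called lower at 200 nM, and scaled by the 75th percentile it was called higher at both doses. Some of these genes were put forward as targets by the study of the same cells, so the list is no independent evidence of a direction.

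The genes whose levels over the 6 libraries were nearest to those of MEIS1, among 7905 protein-coding genes above 5 FPKM in both DMSO libraries, were TMEM70, LYPD1, TWIST1, KMO and PNRC1. The measure is the root mean square distance of log2(FPKM + 1) after centring each gene, and it was 0.23 to 0.35 for these 5 beside a median of 1.498. TWIST1, a mesenchymal transcription factor, stood at 24.2, 8.68 and 3.90 FPKM in A673 and at 115, 43.8 and 26.4 FPKM in SKNMC. The nearest to PBX2 were GOSR2 and KRIT1, to PKNOX1 MIDN and C19orf12, to PBX3 BPTF and UBE2K, and to MEIS2 CCDC28A and VHL. Among the members PBX3 and PKNOX1 were nearest to each other, at 0.26, and MEIS1 and PKNOX1 were farthest apart, at 1.31. The median distance over all genes compared was 0.48 for PBX3 and 0.51 for PKNOX1, and their nearest genes lay at 0.057 and 0.077. Adding 1 to FPKM flattens the profile of low members such as PBX3. The 6 points share 2 lines and 2 DMSO libraries, so these distances are descriptions.

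No listed gene overlaps a member, and 8 lie within 10000 bases of one, 5 of them beside PBX2. Its neighbours RNF5 and AGPAT1, both between 31.2 and 62.4 FPKM, had log2 fold changes between -0.56 and 0.26. AGER, which starts 410 bases from PBX2 on the same strand, stood at 2.12, 2.89 and 4.26 FPKM in A673 and at 1.30, 2.12 and 2.91 FPKM in SKNMC, so that it was higher in all 4 THZ1 libraries where PBX2 was lower. AGER overlaps RNF5, which lies on the other strand, and the sources used here do not say whether strand was used in counting.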

How the data were processed

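The authors made TruSeq libraries and aligned paired-end reads of 100 bp to hg19 with STAR on Ensembl 75 and estimated FPKM with StringTie, and the processing notes also name Cufflinks. The deposited table holds FPKM of 27420 protein-coding and lincRNA genes and the authors' log2 fold changes of each THZ1 column, which were not used. FPKM carries no counts, so depth is unknown. The commonest ratio between low values put THZ1 libraries at roughly 89.5% to 96.6% of the depth of DMSO. Only 0.758% to 0.986% of low genes lay at that ratio, so it is a weak guide to depth. Groups came from the sample labels. The table is titled as average expression, but the labels name 1 library for each column, and each was used as such. Starts in the table count from 0 and were raised by 1.

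The members, lists and tests were chosen with earlier results of these data known. All 7 members are named, with other TALE, HOX and target genes above 1 FPKM in DMSO by list, neighbours within 10000 bases and the nearest profiles. Folds used a pseudocount of 1. limma 3.58.1 (R 4.3.3, eBayes with trend, 2 residual degrees of freedom, Benjamini-Hochberg adjustment over 10574 genes) was tested on simulated data, where 200 of 200 genes lowered by 2 on the log2 scale at 50 nM were recovered, with 7 false calls among the rest of the 10574. The simulated fall was the same in both lines, the other genes were unchanged, and the estimates of all members fitted are smaller than 2. So the simulation does not show how often falls of their size are found. The limma contrast of 200 nM and 50 nM was added after seeing the data. Alternatives were another pseudocount, 3 scalings, other filters and thresholds, no trend and leaving out each library. A further gene of the lists is not reported here. Proteins of the members were not analysed here, and PKNOX2 had no entry among the promoters.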

Additional observations from a re-analysis of the deposited data

Results flagged for a closer look

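The step from 50 nM to 200 nM went in opposite directions in the lines for 2 members. PBX3 was lower at 200 nM in A673, with a log2 fold change of -0.37, and higher in SKNMC, at 0.13. PKNOX1 was higher at 200 nM in A673, at 0.13, and lower in SKNMC, at -0.44. Each line has 1 library at each dose, so whether the lines differ here was not tested, and the SKNMC value of PBX3 turned to -0.02 when libraries were scaled by ribosomal protein genes.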

How the results depend on the processing

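No paired analysis was possible because each condition has 1 library and the labels carry no replicate numbers, other than the pairing by line that the term for line in limma gives. Scaling by the 75th percentile moved the median of active genes by 0.22 and 0.32 (log2) in A673 and by 0.25 and 0.48 in SKNMC at 50 nM and 200 nM, and ribosomal protein scaling by -0.20, -0.29, -0.28 and -0.46, while a common sum moved it by at most 0.03. In A673 at 200 nM 2 members were at least 2-fold lower. The count was 5 with a pseudocount of 0.1, ribosomal protein scaling or a 1.5-fold threshold. Of all active genes 31.1%, 34.8% and 41.1% were lower in these settings, against 25.3% in the main one. By the 75th percentile 1 member was lower, where 17.3% of genes were. Above 10 FPKM it was 0 of 1, since PBX2 alone passed this filter in A673, where 24.5% of genes were lower. In A673 at 50 nM the count of members went from 3 to 1 of 1 above 10 FPKM, again PBX2 alone, where 14.5% of genes were lower. In SKNMC at 50 nM it went from 2 to 1 by the 75th percentile, where 10.3% were lower. In SKNMC at 200 nM the count of members went from 1 to 2 (pseudocount), 0 (75th percentile) and 4 (ribosomal protein, 1.5-fold). The shares of all active genes were 34.3% (pseudocount), 13.4% (75th percentile), 50.4% (ribosomal protein) and 48.0% (1.5-fold). At 1.5-fold 1 member, PBX2, changed between the doses in A673, and 4 differed between the DMSO libraries, against 2 with the pseudocount. The 75th percentile and no filter each lowered the limma count from 5 to 2 at 50 nM and to 3 at 200 nM. By the 75th percentile 25.8% and 33.3% of genes were lower, and with no filter 8.62% and 19.4%. Above 10 FPKM only PBX2 was fitted, which gave 1 of 1 for each dose and for the lines. There 33.6% and 50.6% of genes were lower at the 2 doses, and 23.7% were higher in SKNMC. The 75th percentile gave 1 for the dose step, where 17.2% of genes were lower and 15% higher. Leaving out a library leaves 1 in its treatment, so members called are not counted for those fits. Without A673 50 nM the estimates at 50 nM were -0.41 for PKNOX1, -0.71 for PBX3 and -0.55 for MEIS2. The median over all genes was -0.28. Without A673 DMSO they were -0.48, -0.46 and -0.46, beside a median of -0.34. Without SKNMC 50 nM they were -1.13, -0.47 and -0.52, beside a median of -0.32. At 200 nM PBX3 stood at -0.46 without A673 200 nM, beside a median of -0.55. MEIS1 and PBX2 were called at both doses under each alternative that fitted them. Over MEIS, PKNOX and PBX members together MEIS1 was 19.6%, 14.1% and 8.84% of FPKM in A673 and 49.1%, 41.6% and 37.6% in SKNMC. Of the steps between doses in SKNMC, MEIS1 turned from -0.18 to 0.09 by the 75th percentile. The cause of these shifts was not tested.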
